A study of Homo sapiens with 4 samples.

Results

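The 53 long intergenic noncoding RNAs described here carry symbols of the form LINC followed by digits and passed FPKM 1 in at least 1 of 4 leiomyosarcoma lines. FPKM counts sequenced fragments by transcript length and library size, so that levels of different genes can be set side by side. The table listed 23577 usable genes, of which 266 had such a symbol. Of these 266, 118 were listed at 0 in every line and 95 lay above 0 without reaching 1. The members were thus chosen by their level in these same libraries, and their levels are given as a description. Just inside the minimum were LINC00235 (highest FPKM 1.09), LINC00472 (1.13), LINC00629 (1.18), LINC00340 (1.21) and LINC00471 (1.24). Just outside were LINC00663 (0.989), LINC00659 (0.947), LINC00595 (0.918), LINC00568 (0.903) and LINC00284 (0.880).

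RKN, SKLMS1, SKN and SKUT1 are established human lines of leiomyosarcoma, a cancer of smooth muscle type. Each was grown untreated in medium with 10% serum and gave 1 poly(A) RNA library, so the groups of the study were the lines themselves and differences have no replicate check. The medium, the RNA kit and the library kit were the same for all lines.

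Long noncoding RNAs are transcribed and often spliced and polyadenylated like messenger RNAs, but are not known to be translated. The intergenic ones lie between coding genes, and those without a known function receive a LINC number. As a class they are known for low levels and for expression in few cell types. A poly(A) library measures only those that carry a poly(A) tail.

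The table holds no read counts. Estimated from the steps between low values, the libraries held 24200000 to 33600000 reads, at which an FPKM of 1 on a transcript of 2 kb stood for 44 to 61 reads. Smooth muscle markers reached FPKM 1 for 9 of 10 genes in SKUT1, 6 in RKN, 6 in SKLMS1 and 4 in SKN. In SKN, ACTA2 was 1.37 and CNN1 0.228, while CALD1 was 44.1 and SMTN 45.6, the highest SMTN value of the 4 lines. DES was 1.10 or lower in every line. An exact 0 can be a failed estimate. RPS28, a ribosomal protein gene used by every cell, was listed at 0 in SKUT1, so a member is called "listed at 0" and no fold is given against such a value. RPS28 was also 0.370 in SKLMS1, against 146 in RKN and 211 in SKN, so a low value above 0 can be a failed estimate too.

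LINC members lay below coding genes. The median of their highest FPKM was 3.53, with quartiles of 1.81 and 10.7, against 17.0 for the 12620 coding genes that passed the same minimum, with quartiles of 6.79 and 43.4. The coding median was thus 4.82 times the LINC median, a ratio that depends on the minimum, being 1.65 with a minimum of FPKM 5 (20 members) and 20.2 with none. An FPKM of 10 or more was reached by 14 of 53 members (26.4%) and by 65.5% of the coding genes. Only 19.9% of the LINC symbols passed the minimum at all, compared with 67.3% of the coding symbols in the table and 34.0% of 418 antisense RNAs named -AS. The antisense RNAs that passed had a median of 2.93 (n = 142), and 35 noncoding genes named LOC had a median of 1.88. Host genes of small nucleolar RNAs (SNHG) stood apart from all of these. All 13 SNHG genes in the table passed, with a median of 108.

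**Figure D1:**
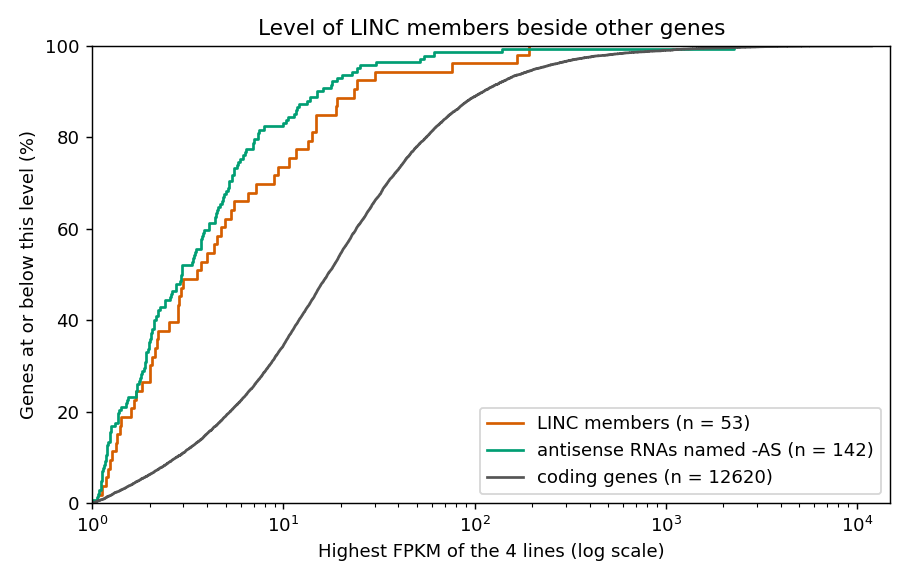
Cumulative share of genes (%, vertical axis) by their highest FPKM in the 4 lines (horizontal axis, log scale), for LINC members (orange, n = 53), antisense RNAs named -AS (green, n = 142) and coding genes (grey, n = 12620), all with a minimum of FPKM 1. The LINC curve crosses 50% at 3.53 and the coding curve at 17.0.

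A few RNAs made up most of the LINC signal. LINC00152, LINC00493 and LINC00657 were the 3 most abundant members, and the top 3 members of each line held 57.3 to 73.4% of the summed FPKM of all members. That sum was 232 (RKN), 521 (SKLMS1), 371 (SKN) and 465 (SKUT1), or 0.0520 to 0.105% of the column totals. LINC00152, now named CYTOR, is an RNA linked to cytoskeleton regulation. Its FPKM was 19.7 (RKN), 67.3 (SKLMS1), 77.4 (SKN) and 193 (SKUT1), the highest value of any member. RKN was its lowest line. In GENCODE release 29 an annotated CYTOR transcript matched MIR4435-2HG, a gene elsewhere in the genome, over 100% of its length at 99.8% identity, so the split of reads between these copies is uncertain.

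LINC00657, now named NORAD, was close to even in the 3 other lines and lower in RKN. Its FPKM was 33.3 (RKN), 63.9 (SKLMS1), 76.4 (SKN) and 74.4 (SKUT1), a range of 2.30-fold. NORAD is known for binding PUMILIO proteins, which recognise an 8-base element in RNA. The element TGTANATA was searched on the transcript strand only, and it occurred 15 times in the 5339 bases of the single GENCODE transcript of NORAD, or 2.81 times per kb. Over the longest transcripts of 12035 coding genes the rate was 0.130 per kb, and over those of the other 48 matched LINC members it was 0.0514 per kb. Of the 49 members matched, 42 had no such element (85.7%), as had 65.6% of the coding transcripts, which are longer (median 3692 against 2331 bases). Some of the NORAD elements with 16 bases on either side, the element in capitals, are shown because they are the feature that sets this member apart in sequence, written as DNA letters and numbered from the 5′ end.
NORAD element 1: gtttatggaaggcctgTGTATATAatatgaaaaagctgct
NORAD element 2: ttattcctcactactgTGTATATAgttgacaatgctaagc
NORAD element 3: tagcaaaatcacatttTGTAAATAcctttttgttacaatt
NORAD element 11: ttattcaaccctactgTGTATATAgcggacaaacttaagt
NORAD element 15: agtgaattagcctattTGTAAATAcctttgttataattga
Elements 1, 2 and 11 share the letters TGTATATA, and elements 3 and 15 share TGTAAATA. A transcript of OVCH1-AS1 elsewhere in the genome matched 86.2% of NORAD at 95.9% identity.

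Of the 53 members, 6 are listed as protein coding in the RefSeq annotation of GRCh38.p14, 46 as long noncoding RNA and 1 as a transcribed pseudogene. The coding ones thus carry a LINC symbol only in the older annotation behind the table. By comparison, 12 of the 213 LINC symbols under the minimum are coding now (5.63%, against 11.3% of the members). Without the 6, the median of the members was 2.85. LINC00493 was the most abundant of them. It is now SMIM26, a small integral membrane protein, and its FPKM was 88.5 (RKN), 167 (SKLMS1), 78.3 (SKN) and 73.7 (SKUT1). SKLMS1 was highest, and the other 3 lines lay close together. Its highest value exceeded that of 93.6% of the coding genes. LINC00116, now MTLN, encodes mitoregulin, a microprotein of the inner mitochondrial membrane. Its FPKM was 5.72 (RKN), 14.4 (SKLMS1), 23.3 (SKN) and 11.4 (SKUT1).

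LINC00617, now TUNAR, is known as an RNA of neural lineages and encodes a small membrane protein of the endoplasmic reticulum. It was 14.8 in SKLMS1, 0.0132 in SKN, and listed at 0 in RKN and SKUT1, the most one-sided of the coding members. LINC00094 (BRD3OS) was 11.6 (RKN), 5.92 (SKLMS1), 10.2 (SKN) and 7.91 (SKUT1), a range of 1.96-fold. LINC00085 (SPACA6) was 1.13, 4.72, 2.87 and 0.743 in the same order of lines, highest in SKLMS1. LINC00341 is treated with the adjacent genes below. The annotated reading frames of SMIM26, MTLN and TUNAR are shown from GENCODE release 29, since they are what moves these symbols out of the noncoding class. The start and stop codons are in capitals. They hold 95 codons (the longest of 3 annotated frames), 56 codons (the frame shared by 2 of 3 transcripts) and 48 codons, not counting the stop.
SMIM26: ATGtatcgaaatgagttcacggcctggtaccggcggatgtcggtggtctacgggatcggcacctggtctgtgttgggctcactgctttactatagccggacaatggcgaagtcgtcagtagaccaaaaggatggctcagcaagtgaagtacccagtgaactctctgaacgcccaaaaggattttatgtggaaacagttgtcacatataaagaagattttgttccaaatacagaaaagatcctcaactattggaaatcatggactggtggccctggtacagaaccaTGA
MTLN: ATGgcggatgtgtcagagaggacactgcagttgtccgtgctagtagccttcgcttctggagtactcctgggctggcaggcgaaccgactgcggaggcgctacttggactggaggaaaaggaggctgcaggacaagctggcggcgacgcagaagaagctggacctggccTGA
TUNAR: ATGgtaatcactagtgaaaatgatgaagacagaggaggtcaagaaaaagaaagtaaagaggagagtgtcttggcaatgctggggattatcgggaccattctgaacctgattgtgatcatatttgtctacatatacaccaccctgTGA

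**Figure D2:**
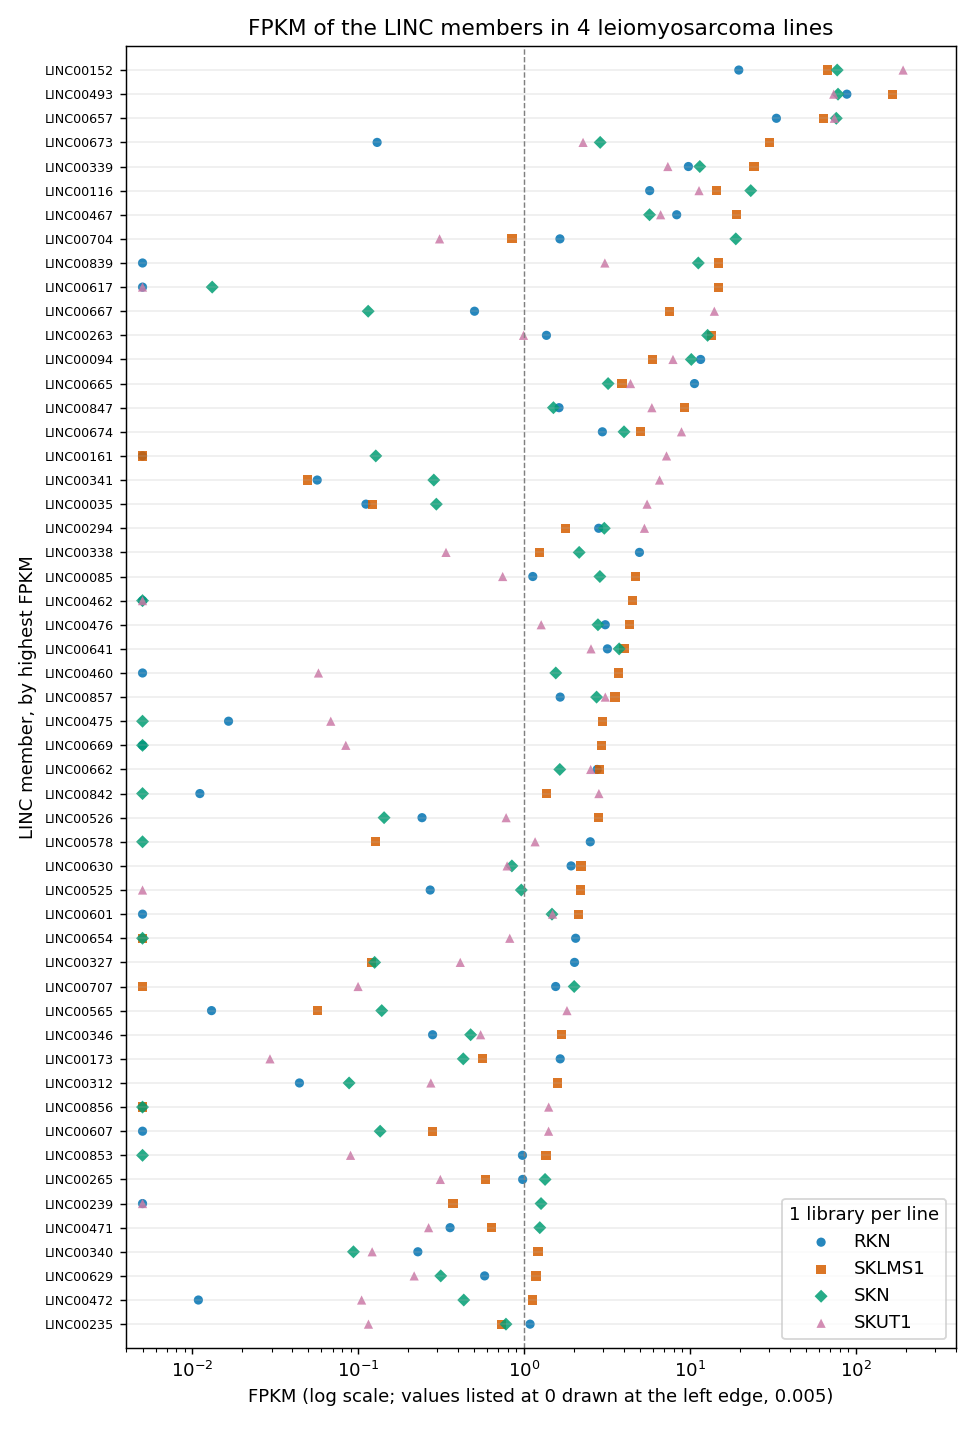
FPKM (horizontal axis, log scale) of each of the 53 members (rows, by highest FPKM) in RKN (circles), SKLMS1 (squares), SKN (diamonds) and SKUT1 (triangles), 1 library per line, where points at equal values cover each other. Values listed at 0 are drawn at the left edge, and the dashed line is FPKM 1. The members run from LINC00152, at 19.7 to 193, to LINC00235, at 0.115 to 1.09.

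Restriction to single lines was common among the members. An FPKM of 1 was reached in exactly 1 line by 25 of 53 members (47.2%), in 2 lines by 7, in 3 by 6 and in all 4 by 15 (28.3%). Over all genes that passed the minimum the share in exactly 1 line was 12.4%, and among coding genes it was 10.7%, with 73.2% in all 4 lines. Among other noncoding classes the share in 1 line was 6 of 11 for microRNA host genes (54.5%), 42.9% for LOC genes and 32.4% for antisense RNAs, so the LINC share lay within the range of these 3 classes. Level differed along with it. The 25 single-line members had a median highest FPKM of 1.69 and the 15 members in all lines a median of 10.7. At a highest FPKM of 2 to 5, 7 of 19 members (36.8%) and 25.9% of 1616 coding genes were in 1 line. At 5 to 10 the shares were 3 of 6 and 8.81%. At 10 and over they were 1 of 14 (7.14%) and 2.60%, while 57.1% of these members and 88.1% of these coding genes were in all 4 lines. In the band from 1 to 2, all 14 members and 69.6% of 793 coding genes were in 1 line.

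A second measure gave the share of a gene's summed FPKM that its top line held, which would be 25% for an even gene. It sets no minimum for the single line, but covers the same genes, chosen by FPKM 1 or more in at least 1 line. The median share was 56.5% for LINC members and 39.0% for coding genes. Within the bands of level the members were at 64.6% (1 to 2), 63.9% (2 to 5), 71.0% (5 to 10) and 48.0% (10 and over), and the coding genes at 56.5, 46.2, 38.6 and 37.5%. The members were the more one-sided class in each band. At least 1 line was listed at 0 for 17 of 53 members (32.1%) and for 7.10% of the coding genes. This too differed by level. In the band from 1 to 2 the shares were 28.6% of members and 30.6% of coding genes. They were 52.6 and 16.6% at 2 to 5, 16.7 and 6.90% at 5 to 10, and 14.3 and 3.02% at 10 and over.

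**Figure D3:**
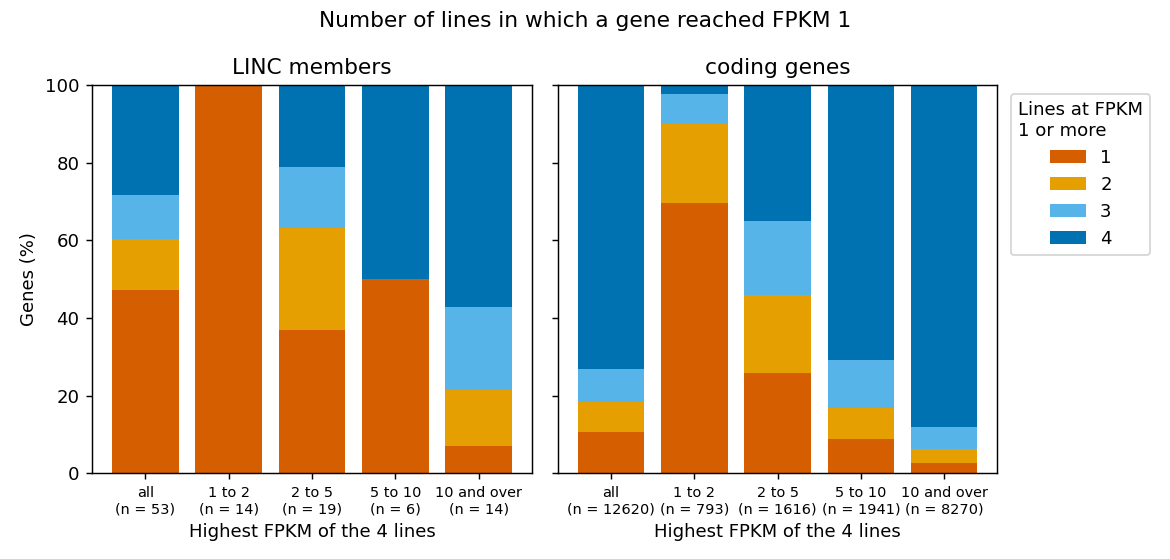
Share of genes (%, vertical axis) that reached FPKM 1 in 1, 2, 3 or 4 lines (colours), for LINC members (left) and coding genes (right), in all and by band of the highest FPKM (horizontal axis, with the number of genes). The orange part, genes in exactly 1 line, is 47.2% of all members and 10.7% of all coding genes.

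SKLMS1 was the leading line of the LINC members. It held the highest value for 27 of 53 members (50.9%), followed by SKUT1 with 11, RKN with 8 and SKN with 7. Among coding genes SKLMS1 was the line least often on top (18.8%), and among coding genes with a highest FPKM of 1 to 5 it was on top for 22.7%. Members at FPKM 1 or more numbered 37 in SKLMS1, against 26 in RKN, 27 in SKN and 27 in SKUT1, while coding genes at that level numbered 10729 to 10966 per line. Of the 25 members in exactly 1 line, 12 passed the minimum through SKLMS1 alone, 6 through SKUT1, 4 through RKN and 3 through SKN. Of 1356 coding genes in exactly 1 line, 21.5% did so through SKLMS1, 33.2% through SKUT1, 28.9% through RKN and 16.4% through SKN. The choice of members thus takes part in both counts of members. Of the 95 LINC symbols above 0 and under the minimum, which the choice of members left out, 34 (35.8%) had their highest value in SKLMS1. For these 95 the share was 24.2% in RKN, 22.1% in SKUT1 and 17.9% in SKN. No such share was taken for coding genes under the minimum, so the 35.8% has no background. Values this low rest on few reads, and the estimated depth differed between the lines. Other noncoding classes that passed the minimum had SKLMS1 on top in 5 of 11 microRNA host genes (45.5%) and 13 of 35 LOC genes (37.1%, level with RKN). SKLMS1 was on top for 29.6% of antisense RNAs and 0 of 13 SNHG genes. Scaling each column to the same sum left 26 of 53 members with SKLMS1 on top, while SKN (17.5%) took its place as the line least often on top among coding genes (SKLMS1 21.1%). Epithelial markers at FPKM 1 or more numbered 5 of 7 in SKLMS1, 3 in RKN, 2 in SKN and 4 in SKUT1, and their summed FPKM was 460 in SKLMS1, 55.5 in RKN, 549 in SKN and 290 in SKUT1. The part of these in the result was not tested.

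**Figure D4:**
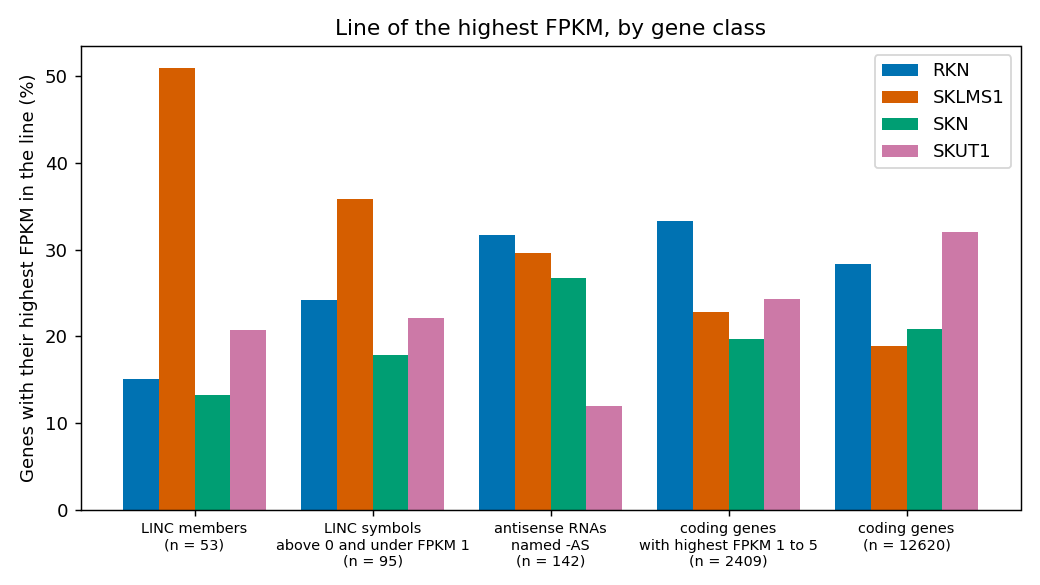
Share of genes (%, vertical axis, from 0) with their highest FPKM in RKN (blue), SKLMS1 (orange), SKN (green) or SKUT1 (pink), for LINC members, the LINC symbols under the minimum, antisense RNAs, coding genes of low level and all coding genes. The SKLMS1 bar is the tallest for LINC members, at 50.9%, and the shortest for all coding genes, at 18.8%, although with columns of equal sum SKN was the lowest there, at 17.5%.

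By the stricter measure of a gap, a gene was highest in a line when its log2(FPKM + 1) there exceeded that of each other line by 2 or more, a 4-fold difference on a scale that understates low genes. This held for 7 of 53 members (13.2%), beside 8.1% of all genes tested and 7.75% of coding genes. Genes of low level cannot meet this rule, and more members than coding genes are low. At a highest FPKM of 1 to 2 it held for 0 of 14 members and 0% of coding genes. The shares were 1 of 19 and 4.89% at 2 to 5, 3 of 6 and 8.35% at 5 to 10, and 3 of 14 and 8.91% at 10 and over. For 3 of the 7 (LINC00161, LINC00462 and LINC00617) at least 1 of the other lines was listed at 0. Of the 7, 3 were in SKLMS1 (background 1.33%), 3 in SKUT1 (4.06%), 1 in SKN (1.34%) and none in RKN (1.37%). By the mirror rule, 4-fold below each other line, LINC00839 in RKN was the only member (1 of 53, beside 3.36% of all genes in any line and 1.65% in RKN). That call rests on a value listed at 0, which can be a failed estimate. No member was lowest in SKLMS1 (background 0.306%), SKN (0.583%) or SKUT1 (0.824%). In pairs of lines, between 3 members (RKN and SKN, background 9.65%) and 8 members (SKLMS1 and SKUT1, background 12.1%) were 4-fold or more apart. RKN and SKLMS1 were apart for 7 members, all higher in SKLMS1 (background 9.79%), and RKN and SKUT1 for 7, of which 6 were higher in SKUT1 (background 15.2%). SKLMS1 and SKN were apart for 6 members (background 7.9%), and SKN and SKUT1 for 6 (background 12.1%). Of these calls, 4 of 7 between RKN and SKLMS1 rest on a value listed at 0, as do 1 of 3 between RKN and SKN and 2 of 7 between RKN and SKUT1. The same holds for 1 of 6 between SKLMS1 and SKN, 3 of 8 between SKLMS1 and SKUT1 and 0 of 6 between SKN and SKUT1.

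The SKLMS1 members were LINC00617, described above, LINC00673 and LINC00462. LINC00673 is an RNA studied in several carcinomas and in melanoma, and its FPKM was 0.130 (RKN), 30.2 (SKLMS1), 2.88 (SKN) and 2.27 (SKUT1). It was thus present in SKN and SKUT1 as well, and 232-fold apart between the outermost lines. That fold rests on the low value in RKN. LINC00462 was 4.49 in SKLMS1 and listed at 0 in the other 3 lines. Next in the width of the gap came LINC00475, at 2.98 in SKLMS1 and 0.0683 or lower elsewhere, and LINC00669 (MIR924HG, the host gene of a microRNA), at 2.92 and 0.0841 or lower. LINC00460, an RNA studied in carcinomas, was 3.70 in SKLMS1, 1.55 in SKN, 0.0575 in SKUT1 and listed at 0 in RKN. LINC00467 was 8.33 (RKN), 19.1 (SKLMS1), 5.71 (SKN) and 6.66 (SKUT1), high in every line and highest in SKLMS1. LINC00339 had the same shape, at 9.80, 24.4, 11.5 and 7.36 in that order, and an annotated transcript of it matched an overlapping gene over 100% of its length at 98.7% identity.

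A few members were shared by SKLMS1 and SKN. LINC00839 was 14.9 (SKLMS1), 11.2 (SKN) and 3.07 (SKUT1), with RKN listed at 0. LINC00263, now OLMALINC, an RNA first described in oligodendrocyte maturation, was 13.4 in SKLMS1 and 12.8 in SKN, against 1.36 in RKN and 0.993 in SKUT1. LINC00847 was instead shared by SKLMS1 (9.32) and SKUT1 (5.90), against 1.63 in RKN and less in SKN.

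SKUT1 had 3 members of its own, LINC00161, LINC00341 and LINC00035. LINC00161 was 7.23 in SKUT1, 0.128 in SKN and listed at 0 in RKN and SKLMS1. LINC00341 was 6.56 in SKUT1 and 0.286 or lower elsewhere. LINC00035, now the pseudogene BICDL3P, was 5.52 in SKUT1 and 0.296 or lower elsewhere. LINC00856 was 1.41 in SKUT1. RKN, SKLMS1 and SKN were listed at 0 for it, a pattern shared only by LINC00462 with SKLMS1.

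SKN had 1 such member. LINC00704, now MANCR, a mitotically associated RNA, was 18.9 in SKN, 1.65 in RKN, 0.847 in SKLMS1 and 0.309 in SKUT1. A transcript of it shares 52.9% of its sequence with the overlapping LINC00705. LINC00707 was 2.01 in SKN and 1.55 in RKN, 0.0998 in SKUT1 and listed at 0 in SKLMS1. NORAD and MTLN, described above, also had SKN on top. Another 3 such members were low. LINC00239 was 1.27, LINC00471 was 1.24 and LINC00265, which has near-identical copies elsewhere, was 1.34.

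RKN had no member 4-fold above the other lines. The widest gap there was that of LINC00665, at 10.7 (RKN), 3.89 (SKLMS1), 3.21 (SKN) and 4.39 (SKUT1). LINC00338, now SNHG20, a small nucleolar RNA host gene, was 4.96 (RKN), 1.24 (SKLMS1), 2.15 (SKN) and 0.338 (SKUT1). An annotated transcript of LINC00338 matched the overlapping coding gene SEC14L1 over 71.6% of its length at 100% identity. SEC14L1 was 22.6 (RKN) to 28.3 (SKUT1), so the reads of these genes may be mixed. LINC00327 was 2.02 in RKN and 0.412 or lower elsewhere, and LINC00654 was 2.05 in RKN, 0.820 in SKUT1 and listed at 0 in SKLMS1 and SKN. LINC00173 was 1.65 (RKN), 0.562 (SKLMS1), 0.430 (SKN) and 0.0294 (SKUT1). LINC00578 was shared by RKN (2.51) and SKUT1 (1.17), with 0.128 in SKLMS1 and SKN listed at 0.

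Evenness was ranked by the range of log2(FPKM + 1). LINC00641 had the smallest range among the 15 members in all lines, at 3.18 (RKN), 4.01 (SKLMS1), 3.75 (SKN) and 2.53 (SKUT1), or 1.58-fold. LINC00662 followed at 2.76, 2.85, 1.64 and 2.52, or 1.73-fold. LINC00857 was 1.65, 3.53, 2.74 and 3.09, or 2.14-fold. LINC00294 (1.78 to 5.32) and LINC00476 (1.27 to 4.33) were the next members by this order after BRD3OS, SMIM26 and NORAD. Without replicates, a range of this size cannot be set against the spread between cultures.

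The other members were low or moderate. LINC00674 was 2.97 (RKN), 5.01 (SKLMS1), 4.01 (SKN) and 8.90 (SKUT1), present in every line. LINC00842 reached 2.83 in SKUT1 and 1.37 in SKLMS1, with 0.0111 for RKN and SKN listed at 0. LINC00630 reached FPKM 1 in RKN (1.92) and SKLMS1 (2.21) and stayed at 0.844 or lower elsewhere. LINC00601 was 2.13 in SKLMS1, 1.47 in SKN, 1.49 in SKUT1 and listed at 0 in RKN. A further 6 members reached FPKM 1 in SKLMS1 alone. They were LINC00525 (2.18), LINC00346 (1.69), LINC00853 (1.36), LINC00340 (1.21), LINC00629 (1.18) and LINC00472 (1.13). LINC00235 did so in RKN alone (1.09).

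Promoter sequences were found in RefSeq (GRCh38.p14, from 250 bases before to 50 after the start) for 45 of the 53 members. CG pairs are rare in the genome except in CpG-rich promoters, which many widely used genes have. A promoter with at least 50% G and C and an observed to expected CG ratio of at least 0.6 was counted as CpG-rich. This held for 21 of 45 members (46.7%), 80.5% of 10351 coding genes, 46.9% of all 27305 promoters in the table and 14.8% of 149 LINC symbols under the minimum. The share of the members was thus that of all promoters. It held for 7 of 14 members in all 4 lines and 10 of 19 in 1 line, and for 86.6% of coding genes in all lines and 51.6% of those in 1 line. CG pairs per window ran from 1 to 42 among the members, and both LINC00161, a member of SKUT1, and LINC00294, found in every line, had 1. NORAD, with 23 pairs, and LINC00161 are shown as a CG-rich and a CG-poor window, with CG pairs in capitals.
NORAD, chr20:36050911-36051210, minus strand: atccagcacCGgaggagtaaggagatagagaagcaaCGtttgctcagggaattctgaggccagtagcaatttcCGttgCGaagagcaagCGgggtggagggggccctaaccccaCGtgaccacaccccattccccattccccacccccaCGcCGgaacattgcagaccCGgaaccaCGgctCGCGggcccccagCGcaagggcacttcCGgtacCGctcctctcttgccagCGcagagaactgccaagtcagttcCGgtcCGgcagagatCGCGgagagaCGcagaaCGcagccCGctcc
LINC00161, chr21:28539068-28539367, plus strand: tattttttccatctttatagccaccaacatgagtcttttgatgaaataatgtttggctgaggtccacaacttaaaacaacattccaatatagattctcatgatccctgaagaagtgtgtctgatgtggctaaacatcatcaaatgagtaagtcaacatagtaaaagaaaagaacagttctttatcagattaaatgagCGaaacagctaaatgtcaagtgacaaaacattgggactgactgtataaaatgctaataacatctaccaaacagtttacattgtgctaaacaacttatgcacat
A CpG-rich promoter also occurred in members of a single line. TUNAR, at FPKM 1 or more in SKLMS1 alone, had 39 CG pairs.
TUNAR, chr14:95876198-95876497, plus strand: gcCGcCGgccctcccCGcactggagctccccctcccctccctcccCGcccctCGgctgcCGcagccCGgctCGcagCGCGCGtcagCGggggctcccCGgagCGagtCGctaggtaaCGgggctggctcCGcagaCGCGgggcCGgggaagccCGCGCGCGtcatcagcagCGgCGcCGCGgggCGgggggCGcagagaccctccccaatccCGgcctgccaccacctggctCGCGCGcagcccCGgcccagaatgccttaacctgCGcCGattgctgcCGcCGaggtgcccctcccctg

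The same windows were searched on both strands for short motifs, where a match is a description of letters and not of a bound site. TGANTCA is a loose form of the core recognised by AP-1, since N admits any middle base. It was found in 8 of 45 members (17.8%), 4.47% of coding genes, 7.76% of all 27305 promoters in the table and 13.4% of LINC symbols under the minimum. CCAAT was found in 27 of 45 members (60.0%), 36.6% of coding genes and 35.7% of all promoters. GGGCGG, the GC box, was found in 19 members (42.2%), 70.5% of coding genes and 44.6% of all promoters, and TATAAA in 5 members (11.1%), 5.62% of coding genes and 12.0% of all promoters. This loose AP-1 form matched in LINC00152, LINC00339, LINC00704, LINC00263, LINC00460, LINC00601, LINC00346 and LINC00607. In LINC00263 the only match reads TGAATCA. CYTOR, with its top line in SKUT1, and MANCR, with its top line in SKN, each had 2 matches, shown in capitals.
CYTOR, chr2:87455177-87455476, plus strand: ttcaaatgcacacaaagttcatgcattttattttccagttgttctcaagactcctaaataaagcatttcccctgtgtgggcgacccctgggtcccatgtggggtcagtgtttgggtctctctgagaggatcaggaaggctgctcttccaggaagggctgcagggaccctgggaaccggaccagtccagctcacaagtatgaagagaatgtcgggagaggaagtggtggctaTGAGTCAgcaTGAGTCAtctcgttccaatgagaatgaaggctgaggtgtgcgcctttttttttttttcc
MANCR, chr10:4678021-4678320, minus strand: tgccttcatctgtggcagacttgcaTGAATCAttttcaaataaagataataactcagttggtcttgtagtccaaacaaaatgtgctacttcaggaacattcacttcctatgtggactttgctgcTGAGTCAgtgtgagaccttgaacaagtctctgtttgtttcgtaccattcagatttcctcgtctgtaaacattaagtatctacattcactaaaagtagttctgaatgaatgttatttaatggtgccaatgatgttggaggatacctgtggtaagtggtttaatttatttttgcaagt
In CYTOR both matches read TGAGTCA and lie close together, and in MANCR they read TGAATCA and TGAGTCA.

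LINC00526 and LINC00667 are the members whose promoter windows overlap. They run in opposite directions, and their windows share 170 bases. LINC00526 was 0.242 (RKN), 2.80 (SKLMS1), 0.143 (SKN) and 0.780 (SKUT1). LINC00667 was 0.503, 7.51, 0.115 and 14.0 in the same order. Both were low in RKN and SKN and higher in SKLMS1 and SKUT1, but SKLMS1 was the top line of LINC00526 and SKUT1 that of LINC00667. An annotated LINC00667 transcript has 56.6% of its letters in common with LINC00526, at the same place in the genome. Whether quantification used the strand of the reads is not known, so their reads may be mixed. The LINC00667 window, with 38 CG pairs in capitals, is shown because it holds the 170 shared bases.
LINC00667, chr18:5237850-5238149, plus strand: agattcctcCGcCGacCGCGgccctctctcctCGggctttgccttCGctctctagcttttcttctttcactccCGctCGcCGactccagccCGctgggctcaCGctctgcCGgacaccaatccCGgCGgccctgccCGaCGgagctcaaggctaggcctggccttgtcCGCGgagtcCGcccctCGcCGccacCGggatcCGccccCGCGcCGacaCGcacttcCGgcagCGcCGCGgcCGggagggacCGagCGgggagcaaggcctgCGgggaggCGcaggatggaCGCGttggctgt

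Adjacent coding genes were taken by their order in RefSeq. Of 49 members with a neighbour that passed the minimum, 18 had at least 1 with the same top line (36.7%), compared with 48.5% of 11488 coding genes and their coding neighbours. Of the 7 members highest in a line by the 4-fold rule, 0 had a neighbour highest in the same line by that rule. Among 974 such coding genes the share was 10.7%. Some loci shared their top line. LINC00565, now SWINGN, is known as an RNA from an enhancer of GAS6, a ligand of the AXL receptor. It was 0.0130 (RKN), 0.0571 (SKLMS1), 0.139 (SKN) and 1.81 (SKUT1), and GAS6 was 5.13, 23.9, 12.9 and 277. Both were highest in SKUT1 and lowest in RKN. LINC00312 was 0.0442, 1.60, 0.0881 and 0.274, and LMCD1, a LIM-domain gene at the same place, was 1.16, 44.0, 8.58 and 27.9. Both had the order SKLMS1, SKUT1, SKN and RKN.

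LINC00341 belongs to the SYNE3 entry in RefSeq, which encodes nesprin-3 of the nuclear envelope, while the table held a row for each. SYNE3 was 0.299 (RKN), 0.137 (SKLMS1), 0.513 (SKN) and 4.15 (SKUT1), with SKUT1 far above the others as for LINC00341 (6.56). EFNB2, an ephrin gene beside LINC00460, was 0.0283, 6.48, 4.72 and 1.98, and both had the order SKLMS1, SKN, SKUT1 and RKN. PDZK1IP1, beside LINC00853, was 67.4 in SKLMS1 and listed at 0 elsewhere, whereas LINC00853 was 1.36 there and 0.978 in RKN. Other loci went apart in the top line or in other lines. SOX9, a transcription factor gene next to LINC00673, was 3.12 (RKN), 1.85 (SKLMS1), 33.0 (SKN) and 0.591 (SKUT1), so the line with the most LINC00673 was not the line with the most SOX9. LINC00607 was 1.41 in SKUT1, 0.279 in SKLMS1, 0.136 in SKN and listed at 0 in RKN, while its neighbour FN1, the fibronectin gene, was 651 in SKLMS1, 2960 in SKN, 0.266 in RKN and listed at 0 in SKUT1. As that 0 can be a failed estimate, the top line of FN1 is uncertain. KLF6, next to MANCR, was 31.6, 27.9, 52.6 and 33.8, highest in SKN as MANCR was, with a much smaller range. SCD, a fatty acid desaturase gene next to OLMALINC, was 46.8 (RKN), 165 (SKLMS1), 27.5 (SKN) and 25.2 (SKUT1), so OLMALINC and SCD were both highest in SKLMS1 but differed in SKN.

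**Figure D5:**
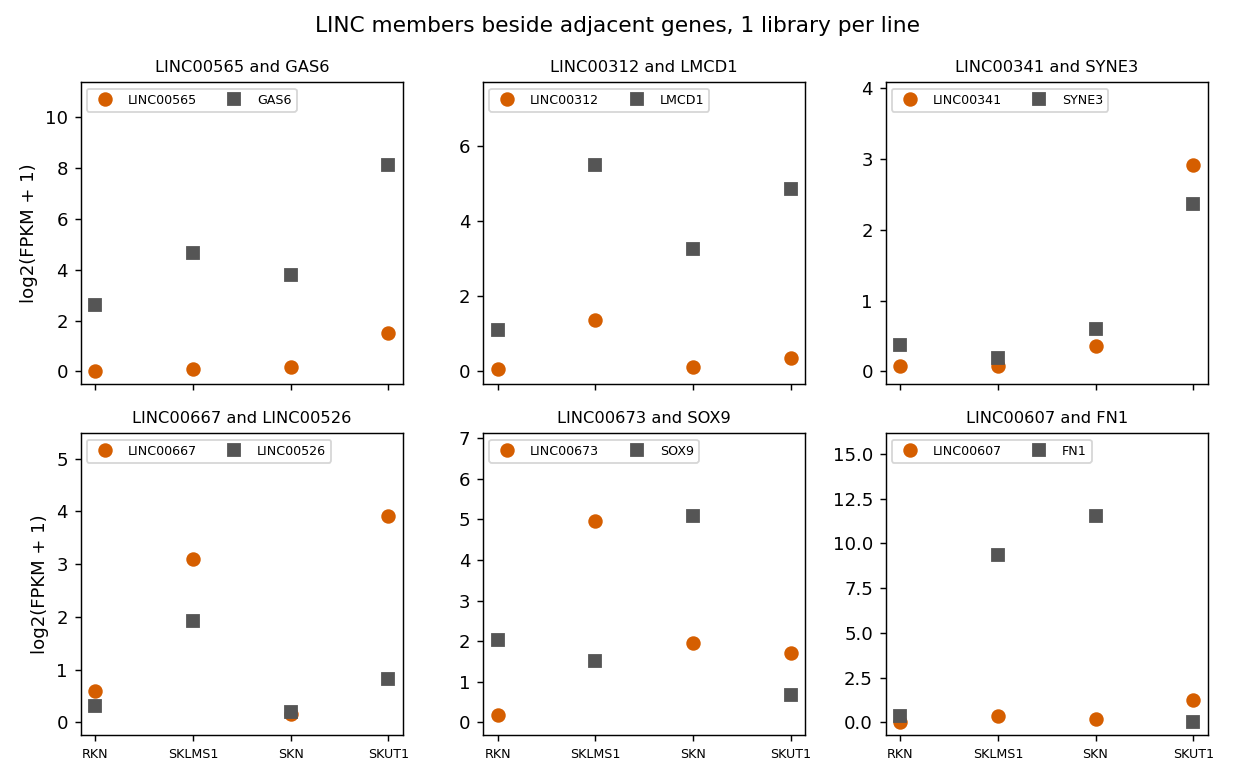
log2(FPKM + 1) (vertical axes, each with its own scale) in the 4 lines (horizontal axis, 1 library each) of 6 LINC members (orange circles) and a gene next to or overlapping each (grey squares). LINC00565 and GAS6, LINC00312 and LMCD1, and LINC00341 and SYNE3 have the same top line, whereas LINC00673 and SOX9 do not. FN1 is listed at 0 in SKUT1, which can be a failed estimate.

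Well-known long noncoding RNAs without a LINC number, taken from a fixed list, were more abundant and broader. The list includes SNHG genes, a class of high level, so this depends on the choice of RNAs. Of 44 listed RNAs in the table, 32 reached FPKM 1, with a median highest FPKM of 31.7, 23 of them in all 4 lines and 5 in 1 line. MALAT1 and NEAT1, abundant nuclear RNAs, were 7.77 to 14.0 and 13.1 to 43.3. H19, an imprinted RNA, was 207 in SKUT1 and 0.150 or lower elsewhere. MEG3, another imprinted RNA, was 38.6 in SKN, 8.35 in SKUT1, 3.37 in SKLMS1 and listed at 0 in RKN. UCA1 was 3.95 in SKLMS1, the line that led the LINC members, with 0.0560 or lower elsewhere. By the 4-fold rule 4 of the 32 were highest in SKN (background 1.34%), 1 in SKLMS1 (1.33%), 1 in SKUT1 (4.06%) and none in RKN (1.37%). By the mirror rule 2 were lowest in SKLMS1 (background 0.306%), and 1 in RKN (1.65%), which was MEG3, listed at 0 there. None was lowest in SKN (0.583%) or SKUT1 (0.824%).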

How the data were processed

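The authors deposited FPKM per gene symbol for 1 poly(A) RNA library of each of 4 lines. Per the labels' protocols, libraries came from a stranded mRNA kit read as 75 bp single ends. Alignment and quantification tools, per the submitters' processing notes, were STAR and Cufflinks, with build hg19. For versions, annotation and strand setting the sources used here give nothing, so reads of overlapping genes may be mixed.

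Of 23610 rows, 28 with symbols turned into date numbers and 5 with spreadsheet errors were left out. Members are symbols of LINC plus digits with FPKM 1 or more in at least 1 line. The members and lists were chosen with earlier results of these data known. Symbols were matched to RefSeq (GRCh38.p14) by symbol or unique synonym, for all 53 members and 97.7% of 13713 genes that passed the minimum. Builds differ, so RefSeq and GENCODE release 29 gave names, order and sequences only. Coordinates printed are those of the RefSeq promoter table. Transcripts of 400 bases or more were compared by blastn at 95% identity or more, and copies covering at least 50% are reported. Depth was estimated from low FPKM values of genes with 1 GENCODE transcript, assuming 200-base fragments, and is approximate.

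With 1 library per line no test or error was possible. Members were named by rule: the 15 most abundant, per line the 8 standing farthest above and the 4 farthest below all others, the 8 most even, those now coding, those with published functions, and those nearest the minimum, plus coding neighbours and listed noncoding RNAs. Others were named after their values were seen. Alternatives were pseudocounts, minimums, scalings, an 8-fold rule and leaving out lines. Counts used Python 3.11.15 with pandas 2.3.3, and the code was tested on simulated data.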

Additional observations from a re-analysis of the deposited data

How the results depend on the processing

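Of 89 recomputed values, 73 kept their size, by a limit of 1.5 times for counts and medians or the 95% binomial interval for shares, and 16 did not. These are not independent checks. The 4-fold rule itself keeps out genes under FPKM 1, so its counts could not change when the minimum was removed. Members in exactly 1 line entered both as a number and as a share. The counts of members highest in a line were small and moved with the pseudocount. At 0.1 they were 1 in RKN, 6 in SKLMS1 and 5 in SKUT1, and at 5 they were 1 in SKLMS1, 0 in SKN and 0 in SKUT1. An 8-fold gap left 0 in SKN and 0 in SKUT1. Leaving out a comparison line in turn gave 0 in RKN, 3 to 5 in SKLMS1 (5 without SKN), 1 to 2 in SKN (2 without SKLMS1) and 3 to 4 in SKUT1. Members in exactly 1 line numbered 8 of 20 with detection at FPKM 5, and 17 to 25, or 41.5 to 51.0%, when a line was left out. The median highest FPKM was 14.4 for members and 23.8 for coding genes with a minimum of FPKM 5. It was 0.504 for members and 10.2 for coding genes with no minimum. The median of the 4 lines in place of the highest gave 0.783 and 9.33. Without single lines the medians were 3.05 to 3.70 and 14.8 to 16.6. SKLMS1 stayed the top line of 24 to 27 members under 4 alternatives chosen after seeing the data. Scaling columns to equal sums, as TPM does, shifted the median of all genes by 0.21 in RKN and -0.21 in SKUT1 on the log2 scale and changed none of the 4 counts of members highest in a line. No paired analysis was possible because each line has 1 library and no test was made. At FPKM 1 a member on 2 kb rests on 44 to 61 reads by the depth estimate, so low members are the least certain.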
